A study of Caenorhabditis elegans with 24 samples.

Results

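The comparison described here set 6 of the 24 RNA libraries of the series against each other, the 3 ethanol controls of the 88 h arm and the 3 ethanol controls of the 16 h arm. All 6 were whole animals of one *daf-2(e1370)* strain, JTL642, which also carries *hsf-1* tagged with a degron and GFP at its own locus and a TIR1::mRuby transgene driven by the *sun-1* promoter, a promoter used for germline expression. TIR1 is the plant ubiquitin ligase component that, once auxin is added, sends degron-tagged proteins to the proteasome, so these controls carried the whole depletion system but received only the solvent, 0.25% ethanol. The 88 h controls had been on ethanol plates since their eggs were laid. The paper describes the 88 h treatment as lasting until the animals had become gravid adults. The 16 h controls grew up on regular plates, were picked onto ethanol plates as young adults and stayed there for 16 h. Animals were grown at 20 °C, and poly(A) RNA was sequenced. The *daf-2(e1370)* allele lowers the activity of the insulin/IGF-1 receptor, and neither group is wild type for it. The 2 control groups thus differ in time on ethanol plates and in handling and, possibly, in age at collection and in the way the cohort was synchronised. The age of the 16 h controls counted from egg laying is not given in the sources used here, and these differences cannot be told apart. Other libraries of the same table, 3 auxin-treated ones for each time, received 1 mM auxin and were used only for a side-by-side comparison of the change with time.

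Hermaphrodites of *C. elegans* make sperm first, in the last larval stage, and store it. As adults they make oocytes, which they fill with yolk protein from the intestine. The cuticle is a collagen sheet secreted by the hypodermis. It is rebuilt at each larval molt and once more for the adult, and different collagen genes are transcribed at different points of each cycle. RNA of whole animals therefore moves with small shifts in age, since larval, adult, germline and embryo transcripts are all in the same tube. In bulk RNA a larger share of one tissue and more RNA per cell of that tissue cannot be told apart.

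Levels are given in CPM, the reads of a gene scaled to a common library total. From the step between the smallest values, the listed genes held between 21.6 and 38 M reads in the 88 h controls, against 22.03 to 24.8 M reads at 16 h (M for mega), with replicate 1 at 88 h the deepest library, and 1 read was worth 0.0265 to 0.0447 CPM. Nothing in the labels says that the 3 libraries of a group came from separate cultures, and the p-values then measure only the spread between these libraries. The smallest value of the table, 0.0586 CPM, marks 0 reads. Markers of the expected tissues were present, with summed intestine markers at 3175 to 4357 CPM in the 88 h controls and 2314 to 2449.5 CPM in the 16 h controls, and summed germline markers at 4210.5 to 4443 CPM in the 88 h controls and 3700.3 to 4397 CPM in the 16 h controls. Of 11 markers of male neurons and the seminal vesicle 1 was tested, *swm-1*, and it overlapped between the groups. The tagged gene *hsf-1* had 57.96, 63.5 and 65.6 CPM in the 88 h controls, against 61.5, 74.6 and 78.6 CPM in the 16 h controls (log2 fold change -0.19 ± 0.09 SE, limma adjusted p = 0.18). *daf-2* itself differed by 0.06 on the log2 scale (limma adjusted p = 0.746). Both groups overlapped for both genes.

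Libraries of one group were spread along the same direction that separated the groups. On the first principal component of the 500 most variable genes, which held 82.0% of their variance over the 12 libraries, the 88 h controls lay at 59.7, 16.8 and 36.1 and the 16 h controls at -9.42, -62.4 and -26.2. The distance between replicate 2 and replicate 1 of the 16 h controls was thus larger than that between the nearest libraries of the 2 groups. The auxin libraries showed a similar order at 16 h, at -6.56, -60.6 and -40.1. Deviations of same-numbered ethanol and auxin libraries from their group means correlated across genes at 0.66, 0.27 and 0.28 at 88 h and at 0.62, 0.56 and 0.12 at 16 h.

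**Figure D1:**
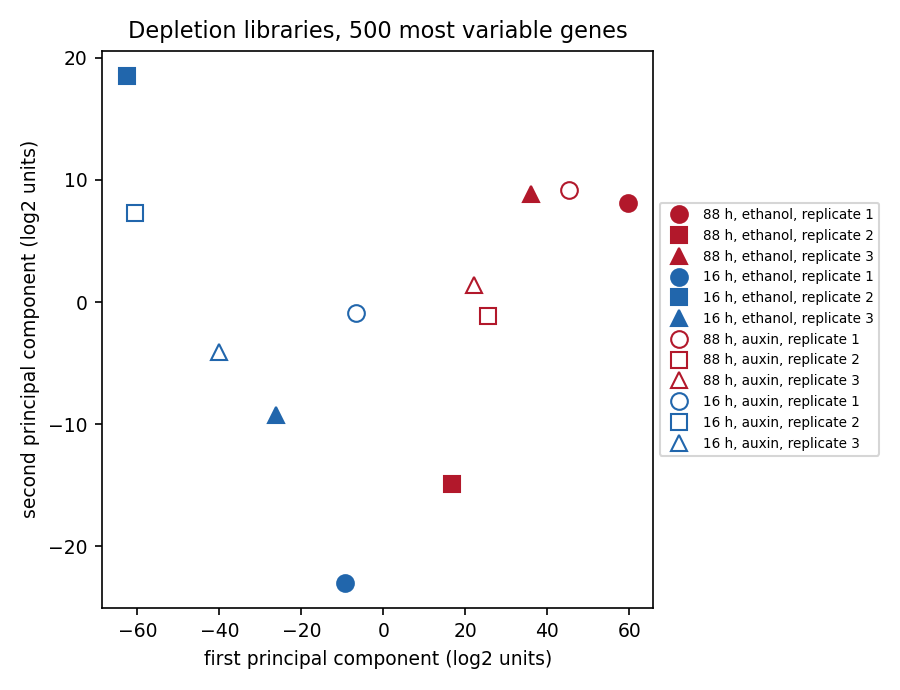
The 12 libraries of the depletion table on the first 2 principal components of the 500 most variable genes, in log2 units, with filled symbols for ethanol controls, open symbols for auxin and marker shapes for replicate numbers. All 88 h libraries (red) lie to the right of all 16 h libraries (blue), and within the 16 h controls replicate 1 lies nearest to the 88 h side at -9.42 and replicate 2 farthest from it at -62.4.

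Of the 12634 genes that reached 1 CPM in 3 or more of the 12 libraries, 1250 (9.89%) differed between the controls at a limma adjusted p under 0.05, with 961 (7.61%) higher at 88 h and 289 (2.29%) lower. At an unadjusted p under 0.05 there were 4193, or 33.2%. The higher genes had a median log2 fold change of 1.52, and 401 of them exceeded 2. The lower genes had a median of -0.51, with 9 below -2. Over all genes tested the median was 0.03. Among the 56 gene lists examined, sperm genes, cuticle collagens and body wall muscle genes had the highest medians. Under quantile normalization, which shifted the median of all genes to -0.12, the split was 1260 higher and 1329 lower.

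These calls sit close to the threshold and change with the libraries in the fit. The smallest limma adjusted p was 0.0155, and no call was kept in all 6 fits that leave out 1 of these libraries. Without replicate 2 or without replicate 3 of the 16 h controls 0 genes passed limma's threshold (3040 and 3342 genes at an unadjusted p under 0.05), and without replicate 1 of the 88 h controls 46 passed. Leaving out replicate 2 or replicate 3 of the 88 h controls kept 668 and 290 of the 1250, among 776 and 298 that passed. Leaving out replicate 1 of the 16 h controls kept 1155, among 2359 that passed. A limma fit to the 6 ethanol libraries alone also passed 0 genes, with 3365 at an unadjusted p under 0.05 and a smallest adjusted p of 0.0747. Every count of members given for a list below falls to 0 in these 3 fits with 0 calls, and the sizes of the changes are therefore given beside the counts. A single call in a list is given for the gene itself, since 7.61% of all genes were higher and 2.29% lower. With replicate 1 of both groups left out, an alternative chosen after the data were seen, 955 genes passed, of which 676 were among the 1250.

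The cuticle collagens held most of the increases of more than 4 on the log2 scale. Of 129 tested, 81 rose (62.8%, against 7.61% of all genes), 2 fell (1.55%, against 2.29%) and the median log2 fold change was 2.44. In 95 the 88 h libraries all lay above all 16 h libraries, a pattern that 21.7% of all genes tested showed. Their summed level was 89974, 67225 and 68118 CPM in the 88 h controls, against 53500, 42255 and 45897 CPM in the 16 h controls, a ratio of 1.59 between the means. The 2 ranges did not overlap, and the collagens took 6.95% to 8.92% of all CPM in the 88 h controls and 4.53% to 6.49% in the 16 h controls. Of the 58 genes of any kind that rose by more than 4 on the log2 scale, 39 were cuticle collagens. Of the 401 that rose by more than 2, 56 were. Left out in turn, the 6 libraries gave medians of 1.503 to 2.92 for the list, and without replicate 1 of the 88 h controls 15 members passed.

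Some collagens were abundant in both groups. *col-19*, a standard reporter of the adult stage, had 4019.7, 3538 and 3353 CPM in the 88 h controls, against 2869, 2016 and 2337 CPM in the 16 h controls, and the 2 groups did not overlap (log2 fold change 0.61 ± 0.14 SE, limma adjusted p = 0.0325). The adjacent X-linked pair *col-178* and *col-179* rose by 0.62 ± 0.09 and 0.62 ± 0.08 (SE, limma adjusted p = 0.0155 for both), at 2259.9, 2058 and 2017 CPM for *col-178* in the 88 h controls and 1378, 1314 and 1427 CPM in the 16 h controls. The ratio of *col-178* to *col-179* stayed between 1.89 and 1.97 in all 6 libraries, and multi-mapped reads were counted as fractions, so these near-identical genes may share reads. The same holds for *col-12* and *col-13*, with ratios of 0.918 to 1.16, and for *col-3* and *col-117*, with ratios of 1.02 to 1.04.

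Other collagens were close to absent in the 16 h controls, and 32 of the 81 that rose had a mean under 1 CPM there. Those described next were high in 2 of the 3 libraries at 88 h and low in the other. *dpy-5* (WBGene00001067, chromosome I, 5432197 to 5433051 on WBcel235, minus strand), a collagen whose loss makes short, fat animals, had 63.2, 2.73 and 32.9 CPM in the 88 h controls. In the 16 h controls it was at 0.130 CPM in replicate 1, which stands for 2 reads, and at 0 reads in the others. *dpy-13*, another body-shape collagen, had 54.2, 2.69 and 29.99 CPM in the 88 h controls and at most 2 reads in any 16 h control. Replicate 2 was the lowest of the 88 h controls for both genes and still lay above every 16 h control. The same order, with replicate 1 or 3 highest and replicate 2 lowest, was found for *col-73* (79.5, 4.12 and 49.8 CPM at 88 h, at most 3.7 reads at 16 h), *col-49* (44.2, 2.72 and 29.9 CPM, at most 3 reads), *col-138* (77.1, 4.98 and 53.1 CPM, at most 11 reads), *col-175* (41.2, 2.03 and 27.3 CPM, at most 7 reads), *col-88* (24.02, 1.18 and 25.9 CPM, at most 2 reads) and *col-90* (21.97, 1.56 and 14.3 CPM, at most 2 reads). Fitted log2 fold changes of these genes, 6.42 to 7.87, depend on the value that edgeR gives to 0 reads and are not read as folds. All 8 passed the threshold, with limma adjusted p from 0.0155 for *col-90* to 0.0253 for *col-73*. Among all 129 collagens, 118 had their highest 88 h value in replicate 1, and of the 81 that rose, 66 had their lowest 88 h value in replicate 2.

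*col-167* and *col-10* had enough reads in both groups for a fold. *col-167* had 78.6, 13.5 and 30.8 CPM in the 88 h controls, against 1.90, 1.64 and 1.91 CPM in the 16 h controls (log2 fold change 4.14 ± 0.59 SE, limma adjusted p = 0.0155). *col-10*, a hypodermal collagen, had 58.8, 21.8 and 40.1 CPM against 9.72, 11.6 and 13.04 CPM (1.71 ± 0.32 SE, limma adjusted p = 0.0205). The 16 h values of both genes were tight and the 88 h values wide. The 2 collagens that fell were *col-95*, with 132, 143 and 156 CPM in the 88 h controls against 234, 444 and 338 CPM in the 16 h controls (-1.19 ± 0.23 SE, limma adjusted p = 0.0221), and *col-101*, with 1748, 2254 and 2279 CPM against 3079.6, 3209 and 3190.4 CPM (-0.60 ± 0.14 SE, limma adjusted p = 0.0323). For both, all 88 h controls lay below all 16 h controls.

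**Figure D2:**
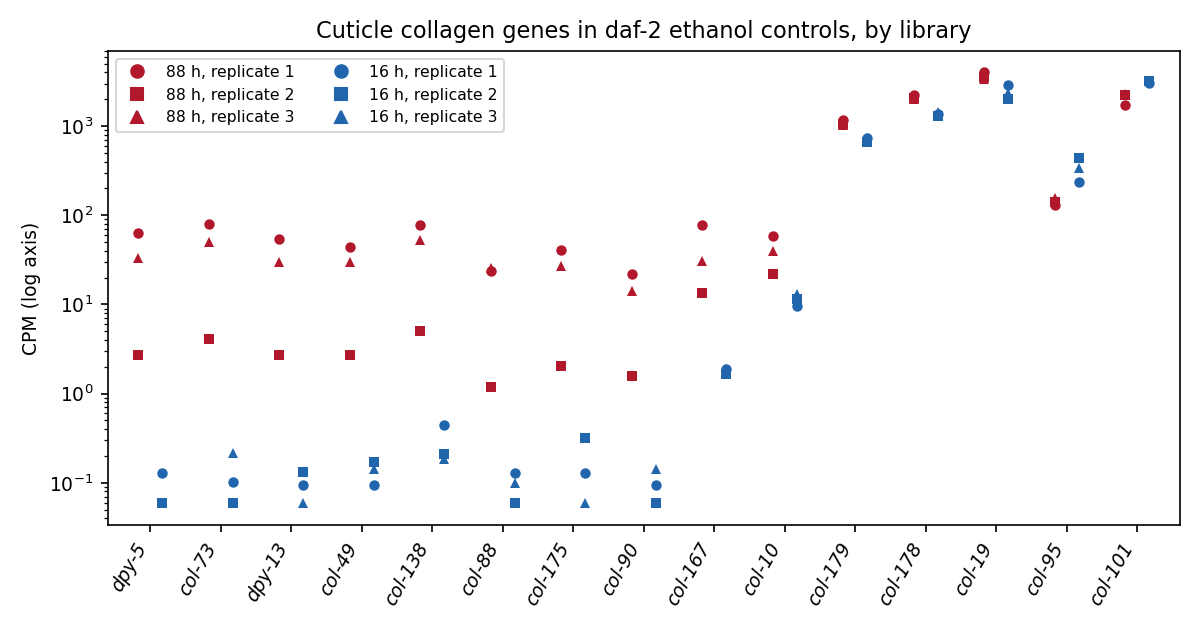
CPM (log axis) of 15 cuticle collagen genes in each of the 3 ethanol controls at 88 h (red, left of each pair) and at 16 h (blue), with marker shapes for replicate numbers. From *dpy-5* to *col-90* the 16 h libraries sit near the floor of 0.0586 CPM while replicate 2 at 88 h lies far below replicates 1 and 3, and at the right end *col-95* and *col-101* are the 2 collagens that fell.

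Genes that act in building and shedding the cuticle did not follow the collagens as a group in the ethanol controls. Of 41 molting and apical matrix genes tested, 1 rose, 0 fell and the median was -0.08, while with auxin 4 rose, 0 fell and the median was 0.37. The 1 that rose in ethanol controls was *ptr-13*, a patched-related membrane protein, by 0.31 ± 0.09 (SE, limma adjusted p = 0.0496). Within the groups the libraries were far apart in *mlt-11* and *noah-1*, which were picked as examples after their values were seen. The protease inhibitor gene *mlt-11* had 10.3, 0.394 and 3.27 CPM in the 88 h controls against 0.496, 12.2 and 6.41 CPM in the 16 h controls, and the zona pellucida domain gene *noah-1* had 9.57, 3.28 and 8.42 CPM in the 88 h controls, against 4.63, 25.04 and 13.5 CPM in the 16 h controls. Of the 41 genes, 15 were highest in replicate 1 at 88 h and 12 in replicate 2 at 16 h, while 14 were lowest in replicate 2 at 88 h and 11 in replicate 1 at 16 h. Hedgehog-related genes, secreted proteins of the worm hypodermis, were nearer to the collagens, with 5 of 21 higher (23.8%, against 7.61% of all genes), 0 lower and a median of 0.73. *grl-16* had 60.7, 4.196 and 49.5 CPM in the 88 h controls and at most 5 reads in any 16 h control, the same order of replicates as in *dpy-5*. *wrt-8* (2.26, 0.327 and 1.504 CPM at 88 h) and *grl-21* (19.1, 0.372 and 3.16 CPM) were listed at 0 reads in all 3 controls at 16 h, while *grl-4* rose by 0.48 ± 0.10 (SE, limma adjusted p = 0.0242). Among 13 hypodermis and seam markers, only *col-19* and *col-10* passed. The uncharacterised genes *Y47D7A.15* (129, 8.03 and 123.3 CPM at 88 h, at most 14 reads at 16 h) and *ZK180.5* (51.4, 3.54 and 37.6 CPM, at most 6 reads) were also among the 10 with the largest fitted changes, next to 7 collagens and *grl-16*.

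Sperm genes were higher in the 88 h controls. Of 28 major sperm protein genes, which encode the cytoskeletal protein that drives sperm crawling and signals to oocytes, 6 rose (21.4%, against 7.61% of all genes), 0 fell and the median log2 fold change was 2.47. In all 28 the groups did not overlap, against 21.7% of all genes tested. Their summed level was 1673, 630 and 616 CPM in the 88 h controls, against 411, 47.2 and 189 CPM in the 16 h controls, a ratio of 4.51 between the means. Replicate 1 held the highest value of all 28 genes in both groups. The members are alike in sequence and may share reads. *msp-38* had 17.5, 7.39 and 7.48 CPM in the 88 h controls and 4.05, 0.810 and 1.63 CPM in the 16 h controls (2.50 ± 0.58 SE, limma adjusted p = 0.0325), and *msp-10*, *msp-50* and *msp-113* rose by 2.16 to 2.62 (limma adjusted p from 0.0402 to 0.0441). The spread within groups was wide and the count of calls differed between settings, with 20 members past the threshold at a pseudocount of 0.1 CPM and 27 at 2 CPM, 13 under median-of-ratios scaling and 27 under quantile normalization.

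Of 51 other spermatogenesis genes, 16 rose (31.4%, against 7.61% of all genes), 0 fell and the median was 2.22. Their summed levels were 2659, 1317 and 1276 CPM in the 88 h controls against 831, 258 and 479 CPM in the 16 h controls. *spe-15*, the myosin VI that sorts components into budding spermatids, had 75.03, 44.4 and 43.7 CPM in the 88 h controls and 22.6, 13.5 and 16.4 CPM in the 16 h controls (1.62 ± 0.28 SE, limma adjusted p = 0.0193). *spe-18*, which acts in the assembly of sperm organelles, had 39.1, 14.1 and 15.8 CPM against 5.81, 1.82 and 3.55 CPM (2.62 ± 0.50 SE, limma adjusted p = 0.0218). *spe-51* and *spe-47*, both needed for sperm function, rose by 2.39 ± 0.46 and 2.31 ± 0.54 (SE, limma adjusted p = 0.0218 and 0.0331) and lay below 1 CPM in every 16 h control. The lowest 88 h control stayed above the highest 16 h control for each of these 4 genes. The list medians with each library left out ran from 1.64 to 3.17 for the major sperm proteins and from 1.49 to 2.81 for the other genes. Without replicate 1 or replicate 3 of the 88 h controls 0 major sperm protein genes passed, without replicate 2 there 1 did, and without replicate 1 of the 16 h controls 28 did. Of the other spermatogenesis genes 0, 8, 3 and 38 passed without replicates 1, 2 and 3 of the 88 h controls and replicate 1 of the 16 h controls.

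Lists of oocyte, eggshell, P granule and general germline genes had medians close to 0. Of 26 oocyte and maternal RNA regulators, 16 eggshell and egg activation genes, 24 P granule and germline small RNA genes and 16 germline markers, 0 passed by limma in either direction, and their medians lay between -0.07 and 0.04. At an unadjusted p under 0.05 there were 0 higher and 1 lower among the RNA regulators, 0 higher and 4 lower among the eggshell genes, 0 higher and 4 lower among the P granule genes and 2 higher and 0 lower among the germline markers. In 7 of the 16 eggshell genes all 88 h controls lay below all 16 h controls, against 15.4% of all genes tested, and in 0 they lay above. In the auxin groups 3 eggshell genes (list median -0.23), 2 RNA regulators and 2 germline markers were called lower by limma and 0 higher. *cpg-2*, an eggshell chondroitin proteoglycan, had 1686, 1863 and 1697 CPM in the 88 h controls and 1591, 1784 and 1849 CPM in the 16 h controls. *cpg-1* had 1380.1, 1858 and 1603 CPM against 803, 1719 and 1722 CPM, with replicate 1 of the 16 h controls low. The RNA-binding genes *cey-2* and *car-1* differed by -0.06 ± 0.12 and 0.12 ± 0.17 and the P granule genes *glh-1* and *pgl-1* by 0.14 ± 0.09 and 0.11 ± 0.08 (SE).

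Some meiotic genes were lower at 88 h. Of 37 tested, 4 fell (10.8%, against 2.29% of all genes), 0 rose and the median was -0.11. In 14 all 88 h controls lay below all 16 h controls, against 15.4% of all genes tested, and in 0 they lay above. With auxin 7 fell and 0 rose. The 4 that fell in ethanol controls were *syp-2*, a central component of the synaptonemal complex, *zhp-3* and *zhp-2*, RING finger proteins that act in crossover control, and *spo-11*, the enzyme that makes meiotic double-strand breaks. *syp-2* had 41.9, 49.8 and 49.1 CPM in the 88 h controls, against 57.9, 57.7 and 58.5 CPM in the 16 h controls (-0.31 ± 0.07 SE, limma adjusted p = 0.0325). *zhp-3* had 52.7, 64.3 and 62.2 CPM against 72.7, 75.4 and 77.1 CPM (-0.33 ± 0.08 SE, limma adjusted p = 0.0357). Replicate 1 was the lowest 88 h control for each of the 4, and no group overlapped with the other. Of 24 DNA replication and cell cycle genes, *rnr-2*, the small subunit of ribonucleotide reductase, fell by 0.26 (SE 0.07, limma adjusted p = 0.0478), and 27 histone genes gave 0 calls by limma with a median of 0.34 (9 higher and 0 lower at an unadjusted p under 0.05). Of 19 embryonic fate genes, *sdz-24* rose by 0.81 ± 0.20 and *sdz-25*, at under 3 CPM in every library and with a symbol shared by overlapping gene identifiers, fell with -1.87 ± 0.50 (SE, limma adjusted p = 0.0363 and 0.0437). 

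The vitellogenins, yolk proteins made in the adult intestine, gave 0 limma calls among 6 genes (0 higher and 0 lower at an unadjusted p under 0.05) and a median of -0.31. *vit-2* had 12867, 17559 and 17999 CPM in the 88 h controls and 9520.3, 26896 and 23155 CPM in the 16 h controls (-0.18 ± 0.37 SE, limma adjusted p = 0.767), and *vit-6* had 13951, 18891 and 19664 CPM in the 88 h controls and 8752, 29151 and 24389 CPM in the 16 h controls (-0.09 ± 0.42 SE). Replicate 1 was the lowest of its group in both, and the summed level in replicate 1 of the 16 h controls, 35714 CPM, lay below every 88 h control while the others at 16 h, 91079 and 78175 CPM, lay above every one.

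Body wall muscle genes rose together. Of 18 markers, 13 rose (72.2%, against 7.61% of all genes), 0 fell and the median log2 fold change was 1.00. In 17 all 88 h controls lay above all 16 h controls, against 21.7% of all genes tested. The summed level was 10453, 9075 and 7100 CPM in the 88 h controls, against 4603, 4469 and 4384 CPM in the 16 h controls, a ratio of 1.98 between means. The 16 h controls lay close together and the 88 h controls were spread more widely. *unc-54*, the major myosin heavy chain of the body wall, had 1239, 1342 and 900.3 CPM in the 88 h controls and 237, 463 and 378 CPM in the 16 h controls (1.72 on the log2 scale, limma adjusted p = 0.0468), and was named after its values were seen. *unc-52*, the basement membrane perlecan under muscle, had 249, 191 and 211 CPM against 59.5, 103.2 and 109 CPM (1.30 ± 0.24 SE, limma adjusted p = 0.0205). *act-4*, a muscle actin, had 1184, 1068 and 831 CPM against 418, 528 and 523 CPM (1.06 ± 0.20 SE, limma adjusted p = 0.0204). In all 3 genes every 88 h control lay above every 16 h control. *mup-2*, a troponin T, rose by 1.19 ± 0.23 and *mlc-1*, a myosin regulatory light chain, by 0.85 ± 0.21 (SE, limma adjusted p = 0.0213 and 0.0372). Leaving out each library gave list medians of 0.90 to 1.13, while 0 members passed without replicate 1, 3 without replicate 2 and 8 without replicate 3 of the 88 h controls. Pharynx markers, muscle and gland genes of the feeding organ, gave 0 limma calls among 9 (0 higher and 0 lower at an unadjusted p under 0.05), and 15 markers of the uterus, spermatheca and vulva gave 0 with a median of 0.33 and 6 higher and 1 lower at an unadjusted p under 0.05 (*fln-1* 0.34 ± 0.10, *itr-1* 0.45 ± 0.15, SE). Of 15 neuron markers *unc-31*, which primes dense-core vesicles, rose by 1.03 ± 0.18 (SE, limma adjusted p = 0.0192), at 7.002, 5.82 and 6.499 CPM in the 88 h controls against 3.05, 3.28 and 3.13 CPM in the 16 h controls.

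**Figure D3:**
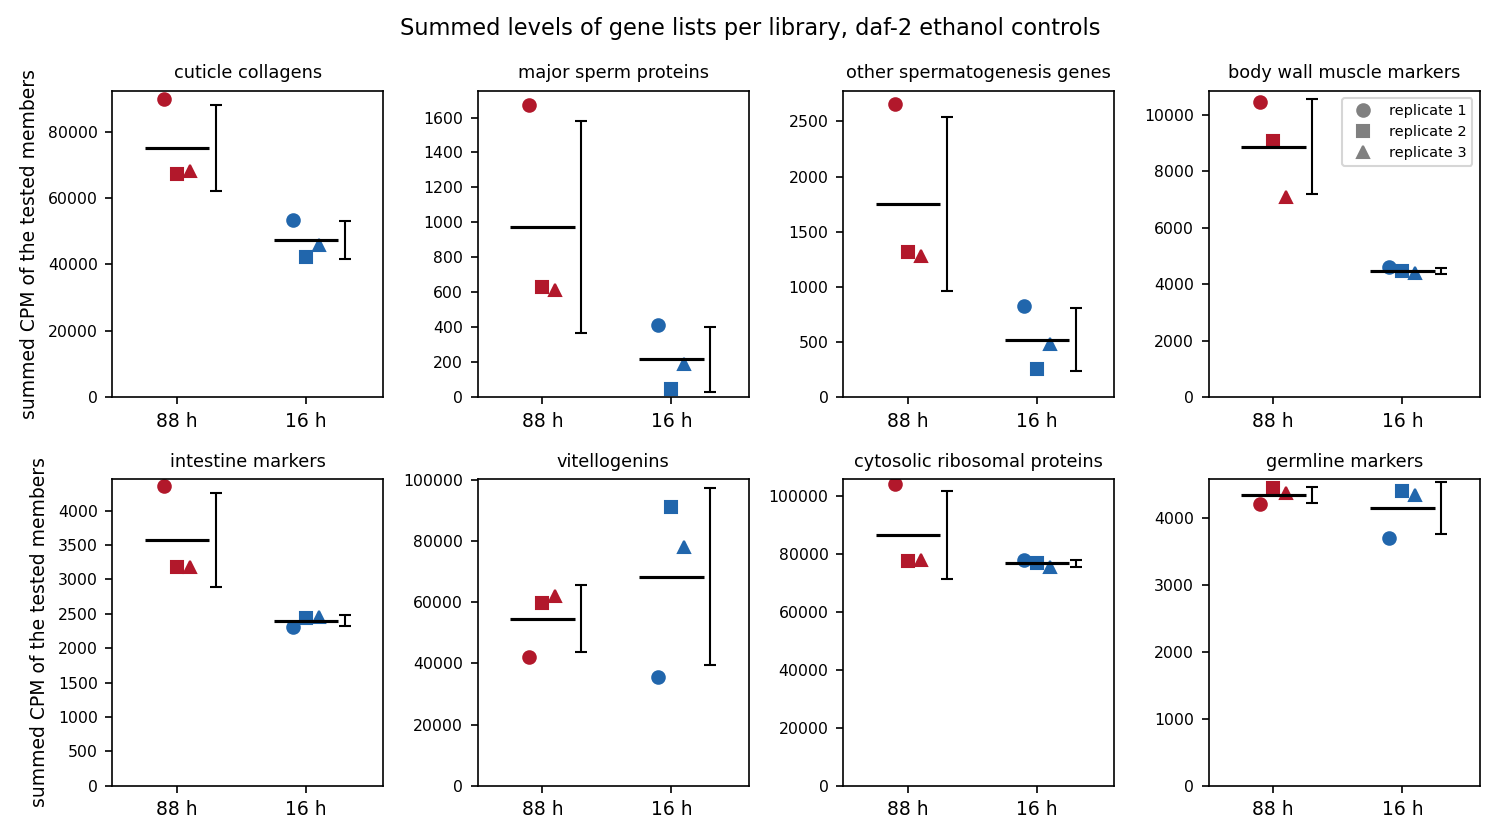
Summed CPM of the tested members of 8 gene lists in each ethanol control at 88 h (red, left) and 16 h (blue), with group means as horizontal lines, SD bars (n = 3) and marker shapes for replicate numbers. Collagens, both sperm lists, body wall muscle and intestine markers do not overlap between the groups, whereas vitellogenins, ribosomal proteins and germline markers do.

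Genes of the intestine were higher at 88 h in part. Of 15 markers, 7 rose (46.7%, against 7.61% of all genes), 1 fell (6.67%, against 2.29%) and the median was 0.67. *act-5*, the actin of the microvilli, had 596, 418 and 386 CPM in the 88 h controls and 276, 236 and 236 CPM in the 16 h controls (0.88 ± 0.17 SE, limma adjusted p = 0.0218). *ifb-2*, an intermediate filament of the terminal web, rose by 1.22 ± 0.25 and *pho-1*, an acid phosphatase, by 0.71 ± 0.15 (SE, limma adjusted p = 0.0239 and 0.0279). The GATA factor *elt-2*, which defines the tissue, had 15.1, 8.90 and 11.1 CPM in the 88 h controls and 9.19, 10.3 and 9.33 CPM in the 16 h controls and did not pass, and was named after its values were seen. Without replicate 1 of the 88 h controls 0 of the markers were past the threshold on the higher side. Among 21 intestinal cathepsin-type proteases, *cpr-5* had 108, 62.8 and 62.3 CPM in the 88 h controls against 26.5, 20.7 and 16.9 CPM in the 16 h controls (1.84 ± 0.29 SE, limma adjusted p = 0.017). *asp-1* and *cpr-8* also rose, by 0.78 ± 0.17 and 1.03 ± 0.28 (SE, limma adjusted p = 0.0298 and 0.0448), while *cpr-6* fell, with 441, 422 and 457 CPM at 88 h against 549, 635 and 602 CPM at 16 h (-0.43 ± 0.10 SE, limma adjusted p = 0.0342).

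The peptide transporter gene *pept-1* (WBGene00003877, chromosome X, 6456872 to 6461767 on WBcel235, plus strand), which brings dietary di- and tripeptides into intestinal cells, had 90.7, 61.6 and 65.2 CPM in the 88 h controls, against 34.03, 26.4 and 31.4 CPM in the 16 h controls. The lowest 88 h control lay well above the highest 16 h control, and the difference was 1.23 ± 0.19 on the log2 scale (SE, limma adjusted p = 0.016), next to 1.26 in the auxin groups. Of 28 nutrient transporters, 5 rose (17.9%, against 7.61% of all genes), 0 fell and the median was 0.49. Their summed levels were 438, 355 and 364 CPM in the 88 h controls against 287, 261 and 273 CPM in the 16 h controls. Beside *pept-1*, the neurotransmitter-sodium symporter family members *snf-9* and *snf-3* rose by 0.86 ± 0.18 and 0.45 ± 0.12 and the amino acid transporter *aat-6* by 1.00 ± 0.26 (SE, limma adjusted p from 0.0259 to 0.0423). With each library left out the list median was 0.39 to 0.61.

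Some enzymes of energy metabolism rose. Of 22 genes of glycolysis and gluconeogenesis, 6 rose (27.3%, against 7.61% of all genes), 0 fell and the median was 0.22. *gpd-3*, glyceraldehyde-3-phosphate dehydrogenase, had 370.0, 311 and 290.1 CPM in the 88 h controls and 236, 197 and 209 CPM in the 16 h controls (0.59 ± 0.10 SE, limma adjusted p = 0.0188). *pck-2*, phosphoenolpyruvate carboxykinase of gluconeogenesis, had 1633, 1421 and 1367 CPM against 1027, 1028 and 1053 CPM (0.50 ± 0.09 SE, limma adjusted p = 0.0193). *pfk-1.1*, phosphofructokinase, rose by 0.49 ± 0.10 and *gpd-2* by 0.62 ± 0.14 (SE, limma adjusted p = 0.0221 and 0.0295). *gpd-2* and *gpd-3* are near-identical neighbours, so reads may be shared. Of 46 respiratory chain genes, 3 rose and 0 fell, and 6.52% is no larger a share than the 7.61% of all genes. Their median was 0.20 and 43 had positive changes. The 3 were *asb-2*, *ucr-2.1* and *sdha-1*, each by 0.56 (limma adjusted p from 0.0242 to 0.0298).

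Alcohol and aldehyde dehydrogenases, families that include the enzymes that oxidise ethanol and its product but also others, gave 5 calls among 14, all higher (35.7%, against 7.61% of all genes). *adh-1* had 112, 53.2 and 54.6 CPM in the 88 h controls and 23.5, 12.2 and 16.4 CPM in the 16 h controls, without overlap (2.03 ± 0.37 SE, limma adjusted p = 0.0193). *alh-6*, *alh-8* and *alh-12* rose by 0.75 ± 0.13, 0.64 ± 0.11 and 0.55 ± 0.13 (SE, limma adjusted p from 0.0187 to 0.0345). Both groups were on 0.25% ethanol, for 88 h and for 16 h, and whether exposure time plays a part was not tested. Genes known to respond to fasting gave 4 calls among 13, all higher (30.8%, against 7.61% of all genes). *lipl-2*, a lysosomal lipase, had 34.9, 19.2 and 25.8 CPM at 88 h against 12.2, 7.38 and 5.59 CPM at 16 h (1.70 ± 0.32 SE, limma adjusted p = 0.0204). *lipl-1* and *lipl-5*, related lipases, rose by 1.06 ± 0.20 and 0.41 ± 0.09, and *icl-1*, the glyoxylate cycle enzyme, by 1.05 ± 0.25 (SE, limma adjusted p from 0.0218 to 0.0348). Of 19 genes of fatty acid synthesis, desaturation and elongation, 3 rose (15.8%, against 7.61% of all genes), *fat-3*, *elo-8* and *fasn-1*, by 0.67 ± 0.15, 2.45 ± 0.59 and 0.45 ± 0.11 (SE), and *lbp-7* was the 1 lipid-binding protein gene of 9 that rose (1.08 ± 0.27 SE, limma adjusted p = 0.0383).

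Defence and detoxification genes gave calls at shares that differed between the lists. Beside 7.61% higher and 2.29% lower among all genes, the shares higher and lower were 14.3% and 2.86% of C-type lectins, 1.89% and 7.55% of cytochrome P450 genes, 3.92% and 1.96% of UDP-glucuronosyltransferases, 6.90% and 0% of glutathione S-transferases, 3.33% and 3.33% of antimicrobial peptide genes and 0% and 10.5% of *pals* genes. Shares near those of all genes are not results about a list, and the genes that follow are given for themselves. Of 70 C-type lectins, sugar-binding proteins of which many respond to bacteria, 10 rose and 2 fell. *clec-52* had 109, 72.8 and 71.997 CPM in the 88 h controls and 44.5, 33.5 and 29.1 CPM in the 16 h controls (1.24 ± 0.22 SE, limma adjusted p = 0.0193), and *clec-169* rose by 2.12 ± 0.42 at levels below 2 CPM (SE, limma adjusted p = 0.0227). *clec-222* fell, with 8.51, 9.80 and 10.8 CPM at 88 h against 19.2, 18.7 and 20.1 CPM at 16 h (-1.002 ± 0.18 SE, limma adjusted p = 0.0193), and *clec-266* fell with 0.496, 0.372 and 1.33 CPM against 2.29, 7.71 and 3.30 CPM (-2.63 ± 0.65 SE, limma adjusted p = 0.0373). Both lectins that fell had separate groups. Of 53 cytochrome P450 genes, 4 fell and 1 rose, with *cyp-14A5*, *cyp-31A5* and *cyp-25A3* at -0.44 ± 0.10, -0.27 ± 0.07 and -0.52 ± 0.14 and *cyp-34A8* at 0.35 ± 0.09 (SE). Of 51 UDP-glucuronosyltransferases, *ugt-30* and *ugt-23* rose by 1.59 ± 0.28 and 0.65 ± 0.15 and *ugt-43* had -1.28 ± 0.36 (SE, limma adjusted p = 0.0193, 0.0324 and 0.0483). *gst-28* and *gst-20* were the 2 of 29 glutathione S-transferases that passed, higher by 1.77 ± 0.29 and 0.70 ± 0.18 (SE). *pals-23* and *pals-24*, neighbouring genes of the family that responds to intracellular pathogens, were the 2 of 19 that passed, both lower, with -0.76 ± 0.15 and -0.64 ± 0.13 (SE, limma adjusted p = 0.0221 and 0.0242). Single calls came from 7 lysozymes (*lys-4*, 0.63 ± 0.16), 10 hypoxia and sulfide response genes (*cysl-2*, 0.51 ± 0.11) and 7 metallothioneins and ferritins (*ftn-2*, 0.55 ± 0.16), and 2 from 30 antimicrobial peptide genes (*spp-23*, 1.07 ± 0.21, and *cnc-3*, -1.40 ± 0.33, SE).

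The insulin pathway itself gave 0 limma calls among 17 genes (3 higher and 2 lower at an unadjusted p under 0.05), with a median of -0.04. *daf-16*, the FOXO transcription factor that the receptor restrains, had 109, 131 and 140.0 CPM in the 88 h controls and 121, 136 and 132.6 CPM in the 16 h controls (-0.04 ± 0.09 SE, limma adjusted p = 0.768). The phosphatase gene *daf-18* had -0.19 ± 0.09 and the 14-3-3 gene *par-5* 0.06 ± 0.09 (SE). *sod-3*, a manganese superoxide dismutase and widely used DAF-16 target, had 50.6, 37.3 and 35.7 CPM at 88 h against 33.8, 27.003 and 26.4 CPM at 16 h, with separate groups, and missed the threshold (0.49 ± 0.15 SE, limma adjusted p = 0.0519). Superoxide dismutases and catalases gave 0 limma calls among 9, with 2 higher and 0 lower at an unadjusted p under 0.05. Of 12 DAF-16 Class I markers, genes raised when insulin signaling is low, *icl-1* passed and the median was -0.01. Of 5 Class II markers, genes lowered under the same condition, *pept-1* passed, while *dod-19* at 215, 84.3 and 83.8 CPM against 79.1, 47.01 and 38.6 CPM did not (1.14 ± 0.38 SE, limma adjusted p = 0.0699). Insulin-like peptide genes gave 0 limma calls among 9 (2 higher and 0 lower at an unadjusted p under 0.05), with *ins-17* at -0.17 ± 0.24 and *ins-37* at 1.95 ± 0.63 (SE). Of 57 neuropeptide genes *flp-6* fell, with 24.8, 25.4 and 25.4 CPM at 88 h against 35.7, 48.8 and 40.02 CPM at 16 h (-0.71 ± 0.15 SE, limma adjusted p = 0.0259).

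Genes of protein synthesis and quality control changed by small amounts. Cytosolic ribosomal proteins gave 0 limma calls among 79 (2 higher and 0 lower at an unadjusted p under 0.05) with a median of 0.15 and 75 positive changes, although replicate 1 at 88 h held 104370 CPM of them while the other 5 libraries held 75491 to 78127 CPM. The limma fit gave 0 calls for 31 aminoacyl-tRNA synthetases, 33 proteasome subunits, 31 cytosolic chaperones and 21 nucleolar genes, with medians from -0.07 to 0.06, and 0 higher and 2 lower among the synthetases, 1 higher and 2 lower among the proteasome subunits, 0 higher and 0 lower among the chaperones and 3 higher and 0 lower among the nucleolar genes at an unadjusted p under 0.05. The summed proteasome level was slightly lower without overlap, at 5649, 5958 and 5702 CPM in the 88 h controls against 6004, 6035 and 6125 CPM in the 16 h controls. Of its 33 subunits 3 had positive changes. In 10 all 88 h controls lay below all 16 h controls, against 15.4% of all genes tested, and in 1 they lay above. *hsp-90* had 2771, 2776 and 2772 CPM in the 88 h controls and 2712, 2959.5 and 2867 CPM in the 16 h controls (-0.04 ± 0.08 SE), and the HSP70 gene *hsp-1* differed by 0.06 ± 0.12. Both are HSF-1 targets, and the groups overlapped for both. Chaperones of the endoplasmic reticulum gave 3 calls among 17, all higher (17.6%, against 7.61% of all genes). These were *dnj-20* (0.37 ± 0.09), *pdi-2* (0.63 ± 0.17) and the BiP gene *hsp-3* (0.51 ± 0.14, SE). The list median was 0.02, while the summed level was 6221, 5140 and 5268 CPM in the 88 h controls against 4443, 4818 and 4829 CPM in the 16 h controls, without overlap. *pdi-2*, a protein disulfide isomerase that also serves as a subunit of the enzyme that hydroxylates collagen, had 484, 400.3 and 414 CPM at 88 h against 208, 318 and 331 CPM at 16 h (limma adjusted p = 0.0474). Single calls, all higher, came from small and inducible heat shock proteins (*hsp-25*, 0.56 ± 0.15), mitochondrial chaperones (*hsp-6*, 0.30 ± 0.08), mitochondrial ribosomal proteins (*mrpl-2*, 0.33 ± 0.09) and translation factors (the eIF5A gene *iff-2*, 0.76 ± 0.20, SE).

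**Figure D4:**
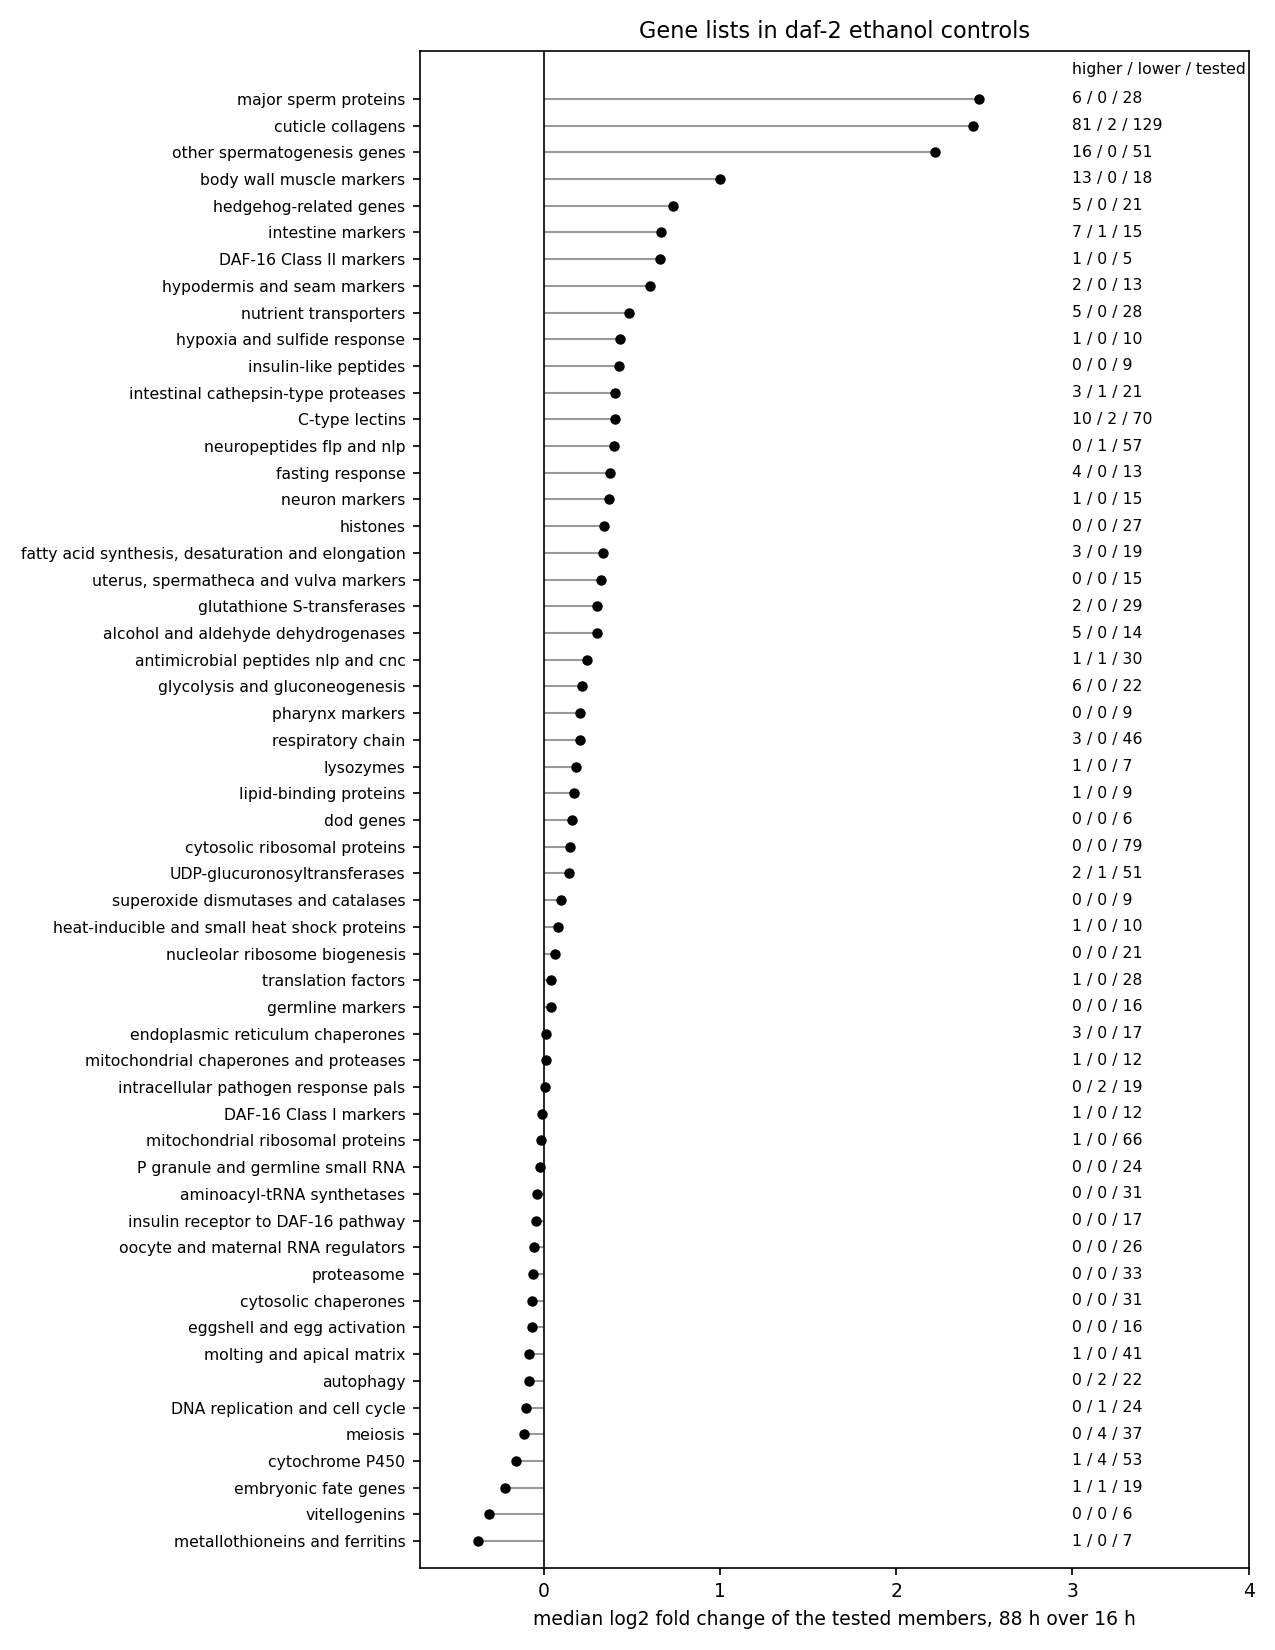
Median log2 fold change (88 h over 16 h) of the tested members of each gene list with at least 5 of them, in ethanol controls, with the number of members higher, lower and tested at the right. Sperm and collagen lists stand at 2.22 to 2.47, body wall muscle at 1.00, and all other lists lie between -0.37 and 0.73.

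Genes that were lower at 88 h changed by smaller amounts, and 267 of the 289 were in no list. The 10 largest decreases among genes with a name, separate groups and at least 5 CPM in the higher group ran from -2.12 to -1.34 on the log2 scale. *F15E6.3* (WBGene00017484, chromosome IV, 4294895 to 4295689 on WBcel235, plus strand) had 6.40, 11.7 and 14.2 CPM in the 88 h controls, against 39.5, 47.6 and 46.4 CPM in the 16 h controls (-2.12 ± 0.30 SE, limma adjusted p = 0.0155). *cht-1*, a chitinase, had 3.67, 5.38 and 7.15 CPM against 11.4, 40.7 and 21.9 CPM (-2.06 ± 0.50 SE, limma adjusted p = 0.0357). *epg-2*, an adaptor for the autophagy of P granule proteins in embryos, had 7.53, 8.76 and 18.97 CPM against 26.1, 68.1 and 32.4 CPM (-1.84 ± 0.49 SE, limma adjusted p = 0.0436). In *cht-1* and *epg-2*, and in the caveolin gene *cav-1* (12.9, 18.4 and 20.4 CPM against 29.1, 70.7 and 41.2 CPM), replicate 2 was the highest and replicate 1 the lowest of the 16 h controls. *far-3*, a fatty acid and retinol binding protein, had 13.9, 19.8 and 21.8 CPM against 37.5, 61.2 and 59.5 CPM (-1.51 ± 0.32 SE). The others were *W09G12.7*, *atz-1*, *C27B7.9*, the FK506-binding protein gene *fkb-7* and *C49G7.10*, with log2 fold changes of -1.94, -1.52, -1.45, -1.35 and -1.34. *epg-2* and *atg-16.1* (-0.50 ± 0.14 SE) were the 2 calls among 22 autophagy genes (9.09% lower, against 2.29% of all genes).

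The change was compared with the same contrast in the auxin groups, which share no library with the ethanol controls. There 1649 genes (13.1%) passed, 1195 (9.46%) higher at 88 h and 454 (3.59%) lower, with 4348 (34.4%) at an unadjusted p under 0.05. Of the 961 genes higher in ethanol controls 676 were also higher with auxin, 70.3% of the ethanol calls and 56.6% of the auxin calls. Of the 289 lower genes 110 were shared, 38.1% and 24.2%. The sign was the same with auxin for 960 of the 961 and 280 of the 289, against 81.7% of all genes tested. A test of the difference between both changes passed 0 genes by limma, with 241 (1.91%) at an unadjusted p under 0.05, and no gene had opposite calls. With the 6 ethanol-auxin pairs of the same time and number as a block, a fit added after the data were seen, limma passed 0 genes too, with 577 at an unadjusted p under 0.05 and a smallest adjusted p of 0.956. The list medians with auxin were 2.26 for cuticle collagens, 2.12 for major sperm proteins, 1.96 for other spermatogenesis genes and 1.06 for body wall muscle. Some lists with smaller medians changed sign. Among them were molting and apical matrix genes (-0.08 in ethanol, 0.37 with auxin), cytosolic ribosomal proteins (0.15 and -0.10) and antimicrobial peptide genes (0.24 and -0.15). Several large decreases were smaller with auxin, where *cht-1* had -0.71, *epg-2* -0.35 and *clec-266* -0.40, and *F15E6.3* had -2.32. The difference between both changes did not pass for any of these genes. Same-numbered ethanol and auxin libraries deviate together, as given above, so the auxin groups are not taken as separate replication. With 16 h replicate 3 or either of replicates 1 and 2 at 88 h left out of the auxin groups, 0 genes passed there (3051 to 3386 at an unadjusted p under 0.05), and 1 gene without replicate 2 at 16 h.

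**Figure D5:**
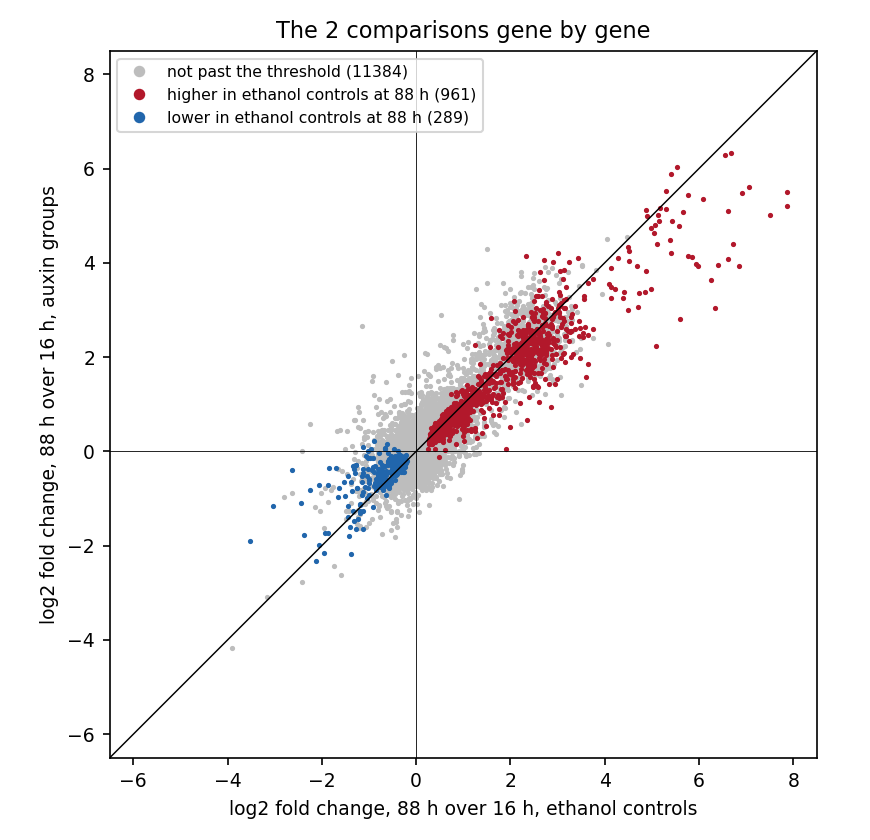
Log2 fold change, 88 h over 16 h, of each of 12634 genes in ethanol controls (x axis) and in auxin groups (y axis), coloured by the call in ethanol controls, with the line of equality. Of the 961 higher genes (red) 960 lie above 0 on the y axis and of the 289 lower genes (blue) 280 lie below it, and the largest ethanol changes, such as that of *dpy-5* at 7.87 against 5.20 with auxin, lie under the line.

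Genes on the X chromosome were a larger share of the higher genes than of all genes, 16.8% against 13.3%, and a smaller share of the lower genes, 8.65%. Chromosome V held 24.9% of the lower genes and 18.3% of all tested, and chromosome IV 20.3% of the higher, 20.8% of the lower and 17.5% of all tested. In *daf-2(e1370)* germline nuclei and whole worms measured separately in the series, the 954 higher genes found there had a median log2 ratio of nuclei to worms of -0.74, the 274 lower genes -1.43 and all 12363 tested genes found there -0.88. Cuticle collagens had -1.67, body wall muscle markers -2.23, intestine markers -2.09, meiotic genes -1.41, major sperm proteins -0.60 and other spermatogenesis genes -0.03 by this measure, all as a description from libraries normalized apart from those compared here.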

How the data were processed

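Poly(A) RNA of whole animals was measured in 12 libraries of the depletion table, of which the 6 ethanol controls are compared here. The authors aligned reads with STAR to WBcel235 (ce11), allowing up to 200 positions for multi-mapped reads, counted them per gene with featureCounts as fractions where reads were multi-mapped or overlapped several genes, removed low genes and deposited log2 CPM made with edgeR, in which a prior count keeps 0 reads at -4.09. Depth was read back from the step size of these values and not from raw counts. Other deposited tables hold the authors' own fold changes and p-values and were not used.

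The deposited log2 CPM were tested with limma 3.58.1 in R 4.3.3 (lmFit and eBayes with a variance trend, 12 libraries as 4 groups, no covariates), on genes with 1 CPM or more in 3 or more libraries, with Benjamini-Hochberg adjustment over 12634 genes and a threshold of 0.05. Fold changes carry the prior count and understate changes of low genes. The test was tried on simulated data first. Positions and symbols came from Ensembl release 115 for WBcel235.

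Named genes were *hsf-1*, *daf-2*, *daf-16*, *pept-1* and *sod-3*, the 10 largest changes in each direction among named genes past the threshold, with non-overlapping groups and 5 CPM or more in the higher group, from each list the members past the threshold with the lowest adjusted p, 4 at most (the 2 most abundant where none passed), and members that passed against the direction of their list. The lists and members were chosen with earlier results of these data known. *mlt-11*, *noah-1*, *elt-2* and *unc-54* were added after their values were seen. Other scalings, pseudocounts, filters, fits and sets of libraries were tried as alternatives. Replicate numbers of the 88 h and 16 h controls were not used to pair libraries.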

Additional observations from a re-analysis of the deposited data

How the results depend on the processing

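In ethanol controls the count of 1250 changed genes became 2589 under quantile normalization (1260 higher and 1329 lower), 2055 at a pseudocount of 2 CPM (1619 and 436), 795 for genes with a mean of 5 CPM or more (578 higher), 481 without a variance trend (373 and 108) and 0 in a fit to the 6 ethanol libraries alone. Without replicate 1 of both groups, added after the data were seen, 137 were lower. Leaving out 1 library gave 0 to 2359 changed genes, 0 to 1934 higher and 0 to 425 lower. In auxin groups the counts were 740 higher for genes with a mean of 5 CPM or more, 1025 lower under quantile normalization and 858 in all without a variance trend (660 higher and 198 lower), and leaving out 1 library gave 0 to 1809 changed, 0 to 1489 higher and 0 to 540 lower. The difference between both changes gave 0 genes in every fit run, with 158 to 577 at an unadjusted limma p under 0.05, the highest with ethanol-auxin pairs as a block, added after the data were seen. Median-of-ratios scaling, a pseudocount of 0.1 CPM and no filter left the ethanol count at 1363, 1576 and 1223.

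With the replicate number as a block, 3164 genes passed in ethanol controls (2328 higher and 836 lower, including all 1250) and 3249 in auxin groups (2323 and 926). Deviations of same-numbered 88 h and 16 h controls correlated at 0.43, 0.23 and 0.05. For replicates 1 and 2 at 88 h the same-numbered 16 h control correlated best, whereas replicate 3 at 88 h correlated best with replicate 2 at 16 h (0.35). Whether same-numbered libraries share a batch is not given in the labels and was not tested.

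Signs of uncalled log2 fold changes turned in some fits. They became *car-1* -0.22, *cpg-2* -0.29, *cpg-1* -0.032, *glh-1* -0.056, *pgl-1* -0.094, *rpl-2* -0.067, *fib-1* -0.30, *nol-58* -0.050, *tars-1* -0.073, *cars-1* -0.048, *hsp-1* -0.24, *par-5* -0.067, *swm-1* -0.095 and *prdx-2* -0.0029 under quantile normalization, *cpg-2* -0.022, *tars-1* -0.0055 and *prdx-2* -0.0050 under median-of-ratios scaling, and *daf-2* -0.082, *daf-16* 0.010, *car-1* -0.036, *cpg-2* -0.031, *fib-1* -0.069, *tars-1* -0.041, *hsp-1* -0.016 and *par-5* -0.0032 without replicate 1 of both groups. Leaving out 1 library gave ranges of *daf-2* -0.11 to 0.16, *daf-16* -0.12 to 0.060, *vit-6* -0.62 to 0.24, *vit-2* -0.64 to 0.10, *cey-2* -0.18 to 0.015, *car-1* -0.085 to 0.24, *cpg-2* -0.056 to 0.052, *cpg-1* -0.10 to 0.45, *his-74* -0.039 to 0.12, *fib-1* -0.047 to 0.10, *tars-1* -0.050 to 0.069, *hsp-1* -0.016 to 0.095, *par-5* -0.021 to 0.11, *myo-1* -0.84 to 0.35, *swm-1* -0.066 to 0.34 and *prdx-2* -0.064 to 0.092. No call turned its direction in these fits, which groups that do not overlap largely fix. The causes of these shifts were not tested. The 3 libraries of each group, and 215 of the higher genes at under 5 CPM in both groups, limit what can be resolved, and the insulin-like peptides had no member left, and so no median, at a mean of 5 CPM or more.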

Other observations

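Most of the higher genes, 776 of 961, were in none of the 56 lists.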
